A study of Drosophila melanogaster with 8 samples.

Results

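The cytoplasmic ribosomal protein genes of Drosophila melanogaster were followed in ovaries of egt null and wild-type flies. They were chosen by symbol: a gene belonged if its symbol begins with RpL or RpS followed by a digit or P and its level, summed over transcripts, averaged at least 1 FPKM over the libraries. FPKM, fragments per kilobase of transcript and per sequencing depth, is a level per transcript length. Genes can be set beside each other only roughly, since levels here are sums over transcripts in which shared reads may enter repeatedly. Of 92 such symbols 87 met the rule, out of 18959 genes, transposons and unmatched transcripts after summing. They were 51 large subunit genes and 36 small subunit genes, with 226 transcripts in all. The symbol rule leaves out stubarista, which encodes a small subunit protein under another name, and all mitochondrial ribosomal protein genes.

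The cytoplasmic ribosome reads messenger RNA with its small subunit and joins amino acids in its large subunit, and each subunit is ribosomal RNA wrapped in proteins that are mostly needed in equal amounts. In the fly ovary, nurse cells fill the oocyte with the ribosomes on which the early embryo runs. Loss of a single copy of many ribosomal protein genes gives the Minute phenotype of slow growth and thin bristles.

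Ovaries were dissected from flies kept at 25 °C, and total RNA was sequenced. The egt null genotype had 2 libraries, 1 from the egt17 allele and 1 from the egt8 allele, both described as null in the labels, and Oregon-R wild type, a common laboratory strain, had 2 libraries (wild type 1 and wild type 2). The alleles stood in as replicates of the null genotype, and since the labels do not say whether the libraries came from separate animals, p-values measure no more than how far these libraries vary, which may be technical. The series names the mutated gene boot, taken here as the gene Boot, whose RNA was at 40.6 FPKM in the egt17 library and 52.1 FPKM in the egt8 library, against 88.6 FPKM in wild type 1 and 89.7 FPKM in wild type 2.

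The libraries resembled each other by pair more than by genotype. The egt17 library went with wild type 1 and egt8 with wild type 2, as recognised from these data, since the labels name no batch. Depth, estimated from the size of 1 read in the deposited values, was 6.15 M reads for egt17 and 6.32 M for wild type 1, and 15.9 M for egt8 and 16.6 M for wild type 2. Over the 85 ribosomal protein genes other than RpS10a and RpS19b, log2 levels correlated at 0.98 between egt17 and wild type 1 and at 0.99 between egt8 and wild type 2. The correlation over the same 85 genes was 0.74 between the null libraries and 0.81 between the wild-type libraries. These correlations describe genes that share libraries and depth. Each difference below is therefore given as a genotype difference (null minus wild type, averaged over the pairs) and, apart from it, as a pair difference (egt17 and wild type 1 minus egt8 and wild type 2). All differences are on the log2(FPKM + 1) scale. Each SE given with a difference comes from the fit without a term for the library pair, so the pair difference widens it.

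Ribosomal protein genes made up a large part of the summed FPKM of every library. Their median level was 2151 FPKM in egt17 and 1628 FPKM in egt8, against 1835 FPKM in wild type 1 and 1130 FPKM in wild type 2. They held 31.6% of the summed FPKM in egt17 and 25.1% in egt8, against 27.7% in wild type 1 and 19.2% in wild type 2. The share averaged 28.4 ± 4.63% in egt null and 23.5 ± 5.97% in wild-type ovaries (SD, n = 2 each). The genotypes overlapped, because egt8 lay under wild type 1, while each null library was above the wild type of its own pair, by 1.14 times for egt17 and 1.30 times for egt8. The share of the null libraries minus that of wild type was 0.693 percentage points without wild type 2 and 9.13 without wild type 1. Wild type 2 was the lowest of the 4 libraries for 72 of the 87 genes and the highest for 0. The egt17 library was the highest for 54 genes and egt8 for 23. These counts were not made over all genes, so they are not read as a trait of the family. Wild type 2 also had the smallest summed FPKM, 531580, against 559848 in egt8, 729018 in wild type 1 and 730499 in egt17.

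**Figure D1:**
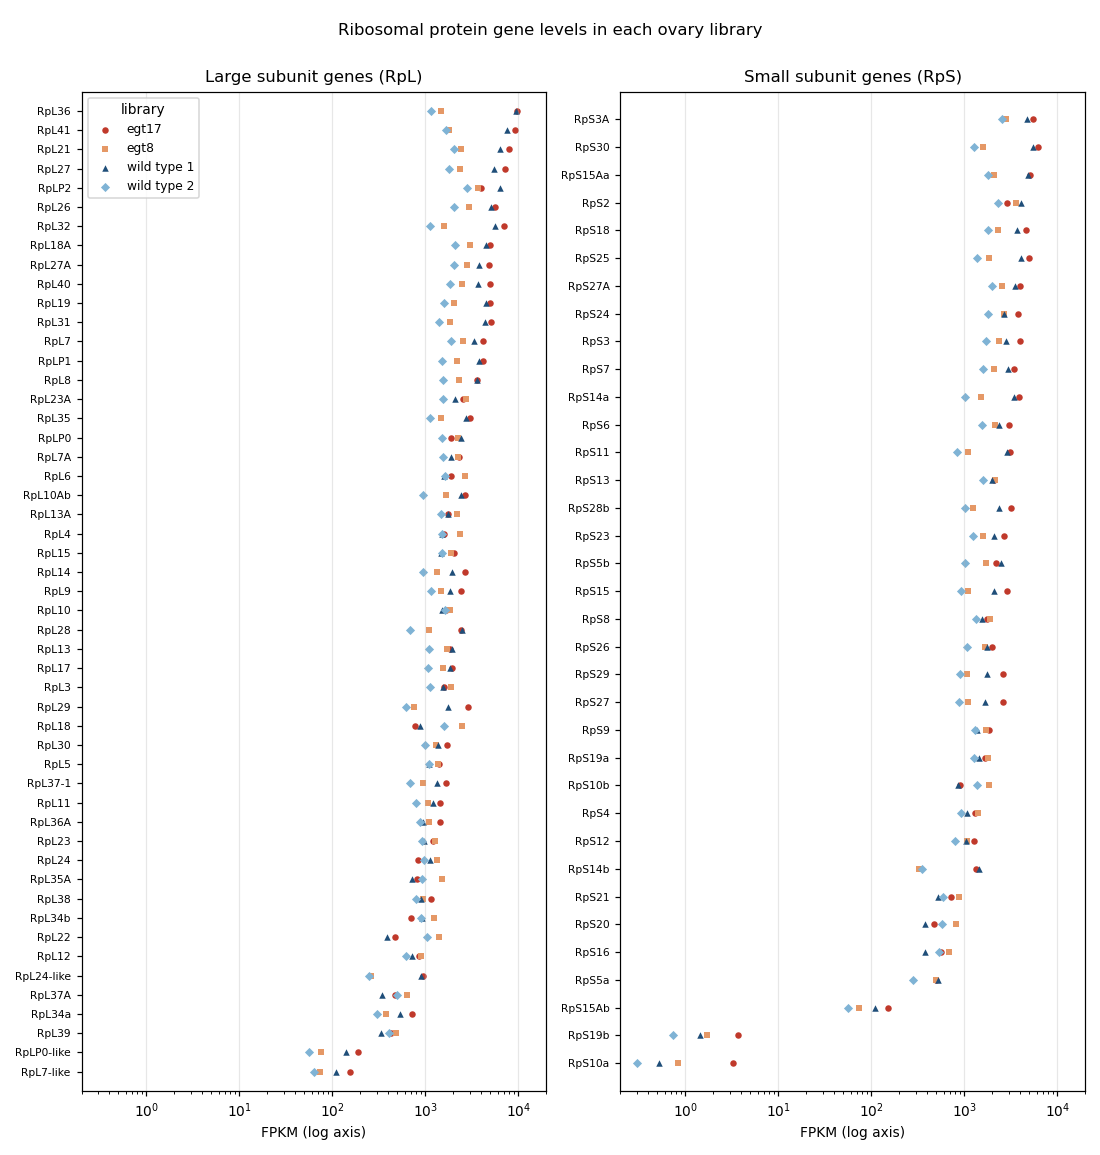
FPKM of 86 of the 87 ribosomal protein genes (log axis) in the 4 ovary libraries, with large subunit genes on the left and small subunit genes on the right, each ordered by mean level. RpL36 and RpL41 lie at the top, RpS19b and RpS10a lie near 1 FPKM, and egt17 with wild type 1 stand to the right of egt8 with wild type 2 for the most abundant genes.

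Few genes lay near the threshold of the rule. Just inside it, RpS10a averaged 1.22 FPKM over the libraries and RpS19b averaged 1.89 FPKM, both second copies of abundant genes. RpS10a held 12 reads in egt17 and 8 in egt8, against 2 in wild type 1 and 3 in wild type 2. The gene met the rule through the null libraries (mean 2.03 FPKM, against 0.41 FPKM in wild type). Its contrast between genotypes therefore partly follows from the choice of members. It reached 1 FPKM only in egt17 and was not tested, so 86 of the 87 genes entered the fits. Outside the threshold lay RpL37-2 with a mean of 0.32 FPKM, RpL22-like with 0.083 FPKM, RpS28a with 0.052 FPKM, and RpL10Aa and RpS28-like, both listed at 0 in every library. RpL22-like is known as a testis form of RpL22.

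Averaged over the pairs, the genotype difference was small and even across the family. It was positive for 84 of the 86 tested genes, against 42.1% of all 8755 genes and transposons tested, with a median of 0.35, or 1.28-fold on that scale. The middle of the family spanned 0.28 to 0.41 (quartiles), against -0.26 to 0.17 around a median of -0.06 over all genes tested. The SD over genes was 0.14 in the family and 0.50 over all genes tested. Among the translation lists described below it was 0.12 for elongation factors and ribosome-associated proteins and 0.15 for initiation factors. It was 0.18 for mitochondrial ribosomal proteins, 0.31 for ribosome biogenesis factors and 0.35 for growth and stress regulators. A difference between 0.2 and 0.6 was found for 73 of the 86 genes, or 84.9%, against 16.2% of all genes tested. Large and small subunit genes had the same median of 0.35, with 50 of 51 and 34 of 35 positive.

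No single gene passed the test. With limma and Benjamini-Hochberg adjustment over all 8755 genes, 0 of the 86 genes and 0% of all genes were called at 0.05, and at an unadjusted p under 0.05 there were 0 of the 86 and 166 (1.9%) of all. With a term for the library pair, limma called 13 genes or transposons in all (0.148%), 9 of them higher (0.103%) and 4 lower (0.0457%) in egt null, and 0 were ribosomal protein genes. In that fit 11 of the 86 had an unadjusted p under 0.05, close to the 13.2% of all genes. The lowest limma adjusted p of the family with the pair term was 0.302, for RpS21. Both null libraries lay above both wild types for 24 of the 86 genes, against 9.34% of all genes tested, and below both for 0, against 11.6%.

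Each allele was also set against the wild type of its own pair, 1 library against 1 and without a test. In egt17 against wild type 1 the median difference of the 86 genes was 0.25, with 73 higher in egt17, against 50.6% of all genes tested and their median of 0.00. In egt8 against wild type 2 the median was 0.43, with 85 higher in egt8, against 37.3% of all genes tested and their median of -0.14. In both pairs 73 of the 86 were higher in the null library, against 24.9% of all genes. RpS14b was lower in both (1 of 86, against 37% of all genes), and 12 went opposite ways in the pairs, against 38% of all genes. Within pairs the family was less even than in the average of 0.14. Its SD over genes was 0.27 for egt17 and 0.17 for egt8, against 0.54 and 0.65 over all genes. Over the 85 genes the differences of the alleles ran against each other, with a Pearson r of -0.29, given as a description. The pooled value moved with each library. Without wild type 2 the median genotype difference was -0.04 (38 of 86 positive), while the median over all genes tested was -0.11. Without wild type 1 the median was 0.75, without egt17 0.12 and without egt8 0.65. Leaving out 1 library breaks a pair, so these values also carry the pair difference described next. For 64 of the genes named here, 78 of 256 such values turned sign, in 44 genes.

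**Figure D2:**
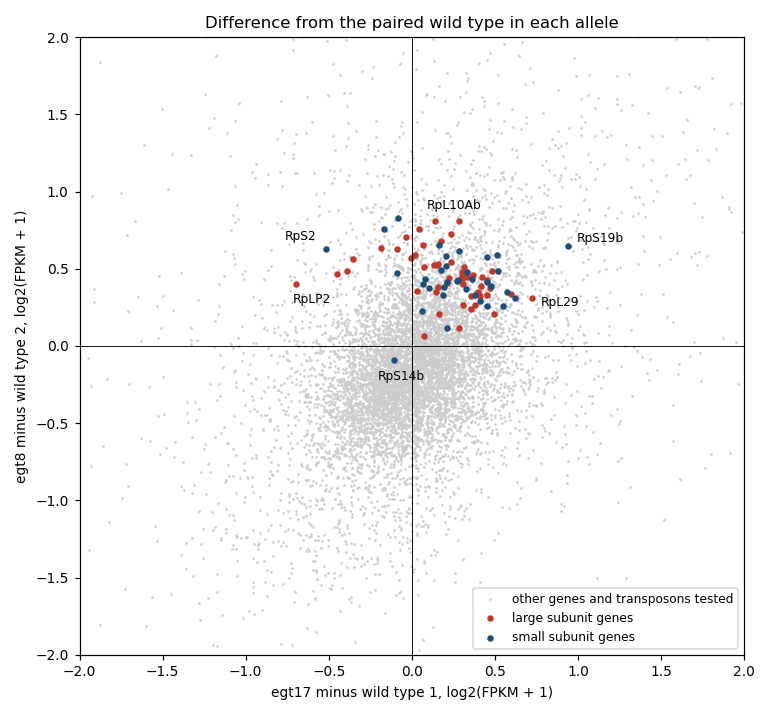
Each gene's log2(FPKM + 1) difference in egt17 from wild type 1 (horizontal) and in egt8 from wild type 2 (vertical), with ribosomal protein genes in colour over the other genes and transposons tested in grey, of which 206 lie outside the axes. Of the 86 tested ribosomal protein genes 73 fall in the upper right, RpS14b alone lies in the lower left, and 12, RpLP2 and RpS2 among them, lie in the upper left.

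The pair difference was larger and far less even than the genotype difference. It had a median of 0.72 over the 86 genes, with quartiles of 0.09 and 1.13 and an SD over genes of 0.80. All genes tested had a median of 0.20 and a similar spread, with quartiles of -0.38 and 0.73 and an SD of 0.91. Both libraries of the egt17 pair lay above both of the egt8 pair for 51 of the 86 genes, against 42.5% of all genes, and both of the egt8 pair lay above for 6, against 27%. The pair difference exceeded the genotype difference in size for 62 of the 86, near the 74.4% of all genes. Over the 85 genes the 2 differences were nearly unrelated, with a Pearson r of -0.13, given as a description since both come from the same libraries. The size of the pair difference depended on scaling: the median was 0.31 when libraries were scaled to an equal sum of FPKM and 0.52 when scaled by the median ratio. Under the same scalings the median over all genes tested was -0.18 and 0.01, so that the family stood 0.49 and 0.51 above it. Scaling moves the family and all genes nearly alike, so it could hardly alter that distance.

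RpL36, a large subunit gene on chromosome X (628338 to 629483 in Release 6, the dm6 assembly), had the largest pair difference. Its level was 9619 FPKM in egt17 and 1478 FPKM in egt8, against 9418 FPKM in wild type 1 and 1154 FPKM in wild type 2. The pairs stood 2.86 apart on the log2 scale while the genotype difference was 0.19 ± 1.38 (SE, n = 2 each; limma adjusted p = 0.9999), with genotypes overlapping. RpL41, which encodes the shortest ribosomal protein, had the same pattern, with 9131 FPKM in egt17 and 1801 FPKM in egt8, against 7493 FPKM in wild type 1 and 1662 FPKM in wild type 2, and a pair difference of 2.26. RpL32, a gene widely used as an internal standard in fly expression work, had 6987 FPKM in egt17 and 1578 FPKM in egt8, against 5661 FPKM in wild type 1 and 1131 FPKM in wild type 2. Its pair difference was 2.23 and its genotype difference 0.39 ± 1.11 (SE). With the pair term, which leaves 1 residual degree of freedom, the SE was 0.23 for RpL32 and 0.25 for RpL36. RpS30, whose product is made as a fusion with a ubiquitin-like protein, had a pair difference of 2.03. In all 4 genes the egt17 pair was high and the egt8 pair low.

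A few genes ran the other way, low in the egt17 pair and high in the egt8 pair. RpL22 on chromosome X (762560 to 765130), whose product binds RNA in the large subunit, had 472 FPKM in egt17 and 1393 FPKM in egt8, against 385 FPKM in wild type 1 and 1034 FPKM in wild type 2. Its pair difference was -1.49 and its genotype difference 0.36 ± 0.75 (SE), higher in the null library of each pair. RpL18 followed with a pair difference of -1.27, RpS10b with -0.84 and RpS20 with -0.68. RpL35A and RpL37A were the remaining genes of the 6 in which both libraries of the egt8 pair stood above both of the egt17 pair.

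**Figure D3:**
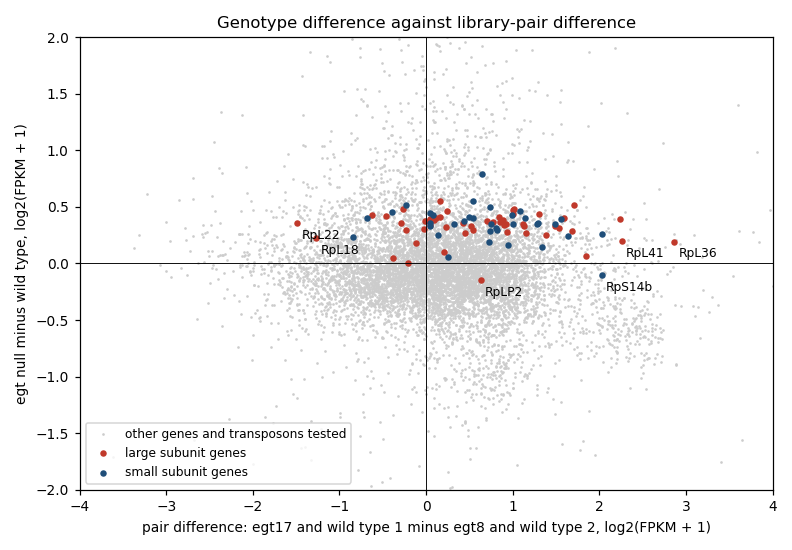
Genotype difference (vertical) against pair difference (horizontal) of each gene on the log2(FPKM + 1) scale, with ribosomal protein genes in colour over the other genes and transposons tested in grey, of which 65 lie outside the axes. The ribosomal protein genes form a flat band near 0.35 that runs from RpL22 at -1.49 to RpL36 at 2.86.

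The pair difference went with the length of genomic sequence that a gene spans, in the family and outside it, while the median genotype difference of the ribosomal protein genes was the same in each band that held any. For genes spanning under 1000 bases the median pair difference was 1.06 over 20 tested ribosomal protein genes and 1.02 over 957 others. For spans of 1000 to under 2000 bases it was 0.72 over 50 ribosomal protein genes and 0.62 over 2025 others, and for 2000 to under 5000 bases it was 0.14 over 16 and 0.10 over 2647. Genes of 5000 bases or more held 0 ribosomal protein genes and had a median of -0.60. In the same bands the median genotype difference of the ribosomal protein genes was 0.35 each time, against 0.01, -0.04 and -0.06 for the others, which had -0.05 at 5000 bases or more. Over the 85 genes the pair difference had a Pearson r of -0.36 with log2 span and 0.29 with log2 mean level. By rank the correlations were -0.35 and 0.44, so span was not the only correlate. The part of span or level in either difference was not tested.

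**Figure D4:**
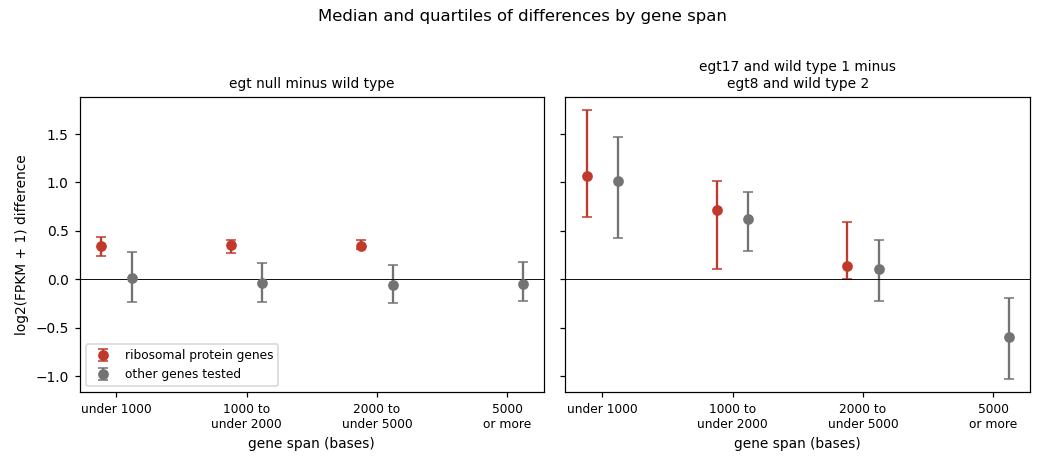
Median (point) and quartiles (bars) of the genotype difference (left) and the pair difference (right) on the log2(FPKM + 1) scale, for ribosomal protein genes and other tested genes by the genomic span of the gene. The pair medians descend with span in both sets (1.06, 0.72 and 0.14 for ribosomal protein genes), and the genotype medians of ribosomal protein genes stay at 0.35.

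Other genes of high level had medians near 0 and a wider spread. The 824 other genes with a mean of at least 100 FPKM had a median of 0.02 (quartiles -0.15 and 0.20), and the 35 other genes of at least 1000 FPKM had a median of -0.01 (quartiles -0.43 and 0.23). For the 84 other genes of at least 500 FPKM the median was 0.07 (quartiles -0.19 and 0.25). The lowest difference in each set, -2.32, was that of a chorion (eggshell) gene. The ribosomal protein genes were spread over the chromosome arms, with 18 on 2L, 19 on 2R, 14 on 3L, 21 on 3R, 14 on X and 1 on chromosome 4. The median genotype difference was between 0.34 and 0.38 on each of the 5 large arms. The 19 genes with a single transcript, in which no sum over transcripts was made, had 18 tested members with a median of 0.36, against 0.35 for the 68 with several.

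The stalk of the large subunit, which recruits elongation factors, held the gene with the lowest genotype difference. RpLP2 had 3930 FPKM in egt17 and 3711 FPKM in egt8, against 6363 FPKM in wild type 1 and 2812 FPKM in wild type 2. Its genotype difference of -0.15 ± 0.63 (SE, limma adjusted p = 0.9999) was the lowest of the 86 tested genes, and wild type 1 alone stood apart from the other 3 libraries. RpLP0, the stalk base, had 1874 FPKM in egt17 and 2237 FPKM in egt8, against 2397 FPKM in wild type 1 and 1510 FPKM in wild type 2, a difference of 0.11 with genotypes overlapping. RpLP1, the partner of RpLP2, had a difference of 0.35 ± 0.69 (SE), at the median of the family.

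RpL23A, at the exit of the tunnel through which the new protein leaves, had the largest difference of the large subunit. Its level was 2557 FPKM in egt17 and 2741 FPKM in egt8, against 2099 FPKM in wild type 1 and 1560 FPKM in wild type 2. Both null libraries were above both wild types, with a difference of 0.55 ± 0.46 (SE, limma adjusted p = 0.9999, and 0.399 with the pair term). RpL29 had a difference of 0.52 ± 0.87 (SE) and a pair difference of 1.71, with 2884 FPKM in egt17 and 761 FPKM in egt8, against 1744 FPKM in wild type 1 and 614 FPKM in wild type 2. Its genotypes overlapped, and each null library was above its own wild type. RpL5 and RpL11, which bring the 5S RNA into the subunit, had differences of 0.34 and 0.33.

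RpL3, near the site of peptide bond formation, had 1598 FPKM in egt17 and 1893 FPKM in egt8, against 1552 FPKM in wild type 1 and 1117 FPKM in wild type 2. The genotypes did not overlap and the difference was 0.40 ± 0.44 (SE). RpL40, made as a fusion with ubiquitin, had a difference of 0.43 ± 0.65 (SE). At the low end, RpL24 and RpL34b had differences of 0.01 and 0.05, both lower in egt17 and higher in egt8 than the wild type of the pair. RpL24 was negative under 3 of the alternatives (-0.03 at an equal sum of FPKM, -0.07 at an equal sum outside eggshell and yolk genes, -0.02 by the highest transcript) and RpL34b under 1 of them (-0.03, outside eggshell and yolk genes).

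Among small subunit genes with large differences, RpS21 had the smallest SE in the fit without the pair term. Its level was 719.5 FPKM in egt17 and 885 FPKM in egt8, against 526 FPKM in wild type 1 and 593 FPKM in wild type 2. Both null libraries were above both wild types, with a difference of 0.51 ± 0.36 (SE). RpS24 had 3825 FPKM in egt17 and 2695 FPKM in egt8, against 2677 FPKM in wild type 1 and 1792 FPKM in wild type 2, a difference of 0.55 ± 0.52 (SE) in which egt8 and wild type 1 nearly met.

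RpS3, at the entry of the messenger RNA channel, had a difference of 0.50 ± 0.56 (SE), and RpS6, the substrate of S6 kinase, one of 0.40 ± 0.50 (SE). RpS27A, the other fusion with ubiquitin, had a difference of 0.29 ± 0.58 (SE). RpS2 lay at the low end with 2866 FPKM in egt17 and 3569 FPKM in egt8, against 4095 FPKM in wild type 1 and 2314 FPKM in wild type 2. Its difference of 0.06 ± 0.55 (SE) joined a lower egt17 and a higher egt8 within their pairs, and was -0.02 at an equal sum outside eggshell and yolk genes. RpS3A, the small subunit gene of highest mean level, had a difference of 0.16 ± 0.65 (SE) and a pair difference of 0.94. In single libraries RpS30 was above it in egt17 and wild type 1, and RpS2 was above it in egt8.

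Several proteins have a second gene, and the files held both copies above threshold for 9 of 14 pairs of gene names. Reads of near-identical copies may have been shared or split in the counting, which the sources used here do not describe, so their ratios are uncertain. RpS5b, the copy known to be enriched in the fly ovary, had 2206 FPKM in egt17 and 1721 FPKM in egt8, against 2476 FPKM in wild type 1 and 1018 FPKM in wild type 2. Its widely expressed partner RpS5a had 494 FPKM in egt17 and 501 FPKM in egt8, against 522 FPKM in wild type 1 and 282 FPKM in wild type 2. The ratio of RpS5b to RpS5a was 4.47 in egt17 and 3.44 in egt8, against 4.74 in wild type 1 and 3.61 in wild type 2. The ratio was higher in the egt17 pair, and the log2 ratio differed between genotypes by -0.08 (egt null minus wild type), less than between the libraries of either genotype.

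RpS14a and RpS14b, neighbouring genes on chromosome X that encode the same protein, differed in direction. RpS14b had 1324 FPKM in egt17 and 326 FPKM in egt8, against 1426 FPKM in wild type 1 and 348 FPKM in wild type 2, a genotype difference of -0.10 ± 0.97 (SE) and a pair difference of 2.02. RpS14a had a genotype difference of 0.40 ± 0.83 (SE). The ratio of RpS14b to RpS14a was 0.34 in egt17 and 0.21 in egt8, against 0.42 in wild type 1 and 0.34 in wild type 2, lower in the null library of each pair. The test was not made on the ratio.

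RpL34a over RpL34b stood at 1.004 in egt17 and 0.30 in egt8, against 0.57 in wild type 1 and 0.34 in wild type 2, above the paired wild type in egt17 and below it in egt8. RpS15Ab was 0.030 of RpS15Aa in egt17 and 0.035 in egt8, against 0.023 in wild type 1 and 0.031 in wild type 2. RpS19b, the second copy of RpS19a, had 3.68 FPKM in egt17 and 1.70 FPKM in egt8, against 1.44 FPKM in wild type 1 and 0.73 FPKM in wild type 2. Its genotype difference of 0.79 ± 0.52 (SE, limma adjusted p = 0.9999, and 0.395 with the pair term) was the largest of the 86 tested genes at one of its lowest levels, where the added 1 understates the ratio.

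RpL24-like, RpL7-like and RpLP0-like match the rule by name, but their relatives in yeast act in assembling the large subunit and leave before it works. RpL24-like had 941 FPKM in egt17 and 260 FPKM in egt8, against 896 FPKM in wild type 1 and 248 FPKM in wild type 2, with a genotype difference of 0.07 (-0.0072 at an equal sum outside eggshell and yolk genes) and a pair difference of 1.85. RpL7-like and RpLP0-like had genotype differences of 0.35 ± 0.51 and 0.44 ± 0.65 (SE). RpLP0-like had 190 FPKM in egt17 and 75.8 FPKM in egt8, against 138 FPKM in wild type 1 and 56.2 FPKM in wild type 2, so that egt17 was the highest and wild type 2 the lowest. The ratio of RpLP0-like to RpLP0 was 0.10 in egt17 and 0.034 in egt8, against 0.058 in wild type 1 and 0.037 in wild type 2.

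Other cell types and egg stages differed between these libraries as well. The 9 listed chorion genes of the late follicle cell had a sum of 4438 FPKM in egt17 and 10718 FPKM in egt8, against 27618 FPKM in wild type 1 and 20194 FPKM in wild type 2, none at 0 and all 9 with a negative genotype difference (median -1.43). Of these 9, 2 were higher in egt8 than in wild type 2 and 0 were higher in egt17 than in wild type 1. Vitelline membrane and yolk genes alone held 0.735% of summed FPKM in egt17, under the 2.04% of wild type 1. In egt8 they held 3.92%, above the 2.60% of wild type 2. Chorion, vitelline membrane and yolk genes together held 1.34% of summed FPKM in egt17 and 5.84% in egt8, against 5.82% in wild type 1 and 6.399% in wild type 2. Of the sum outside those genes, ribosomal protein genes still held 32.1% in egt17 and 26.7% in egt8, against 29.4% in wild type 1 and 20.6% in wild type 2. Scaled to that sum, their median genotype difference was 0.28 with 80 of 86 positive. The family stood 0.41 above the median of all genes both with that scaling and without it. Scaling a library shifts all genes nearly alike, so this distance could hardly change.

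Germline markers (11 of 12 matched, 10 tested) had a sum of 1096 FPKM in egt17 and 1730 FPKM in egt8, against 1200 FPKM in wild type 1 and 1685 FPKM in wild type 2, with a median genotype difference of 0.13. Follicle cell markers (10 of 11 matched, 9 tested) had a sum of 56.6 FPKM in egt17 and 129 FPKM in egt8, against 42.4 FPKM in wild type 1 and 77.3 FPKM in wild type 2, with 7 of 9 positive and a median of 0.48. Muscle markers (all 13 matched, 11 tested) had a sum of 211 FPKM in egt17 and 702 FPKM in egt8, against 378 FPKM in wild type 1 and 263 FPKM in wild type 2, so the alleles went opposite ways. Of 8 hemocyte markers 6 were under 1 FPKM in every library and 1 was at 0 in every library. In these bulk samples a change in the number of cells of a type and in RNA per cell cannot be told apart. The part of cell makeup in the ribosomal protein differences was not tested.

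The rest of the translation machinery was described from gene lists in the same way, and 0 of its genes passed limma with or without the pair term. The 6 tested elongation factors, which move the ribosome along, were all positive between genotypes with a median of 0.37, beside 0.35 for ribosomal protein genes. Their median pair difference was 0.34, beside 0.72. eEF5, which helps past difficult peptide bonds, had the largest difference with 1302 FPKM in egt17 and 1268 FPKM in egt8, against 635 FPKM in wild type 1 and 1078 FPKM in wild type 2 (0.63 ± 0.44, SE), with both null libraries above both wild types. eEF1beta, the exchange factor for the factor that delivers transfer RNA, followed with 0.43 ± 0.65 (SE).

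Of 28 initiation factors, which bring ribosome and messenger RNA together, 27 were positive, with a median of 0.24. The highest were eIF4H1 at 0.60 ± 0.73 and the poly(A) binding protein gene pAbp at 0.52 ± 0.75, and eIF4B was the only negative one at -0.12 ± 0.40 (SE). The 9 ribosome-associated proteins had a median of 0.16 with 8 positive, among them Ns1 at 0.35 and Non1 at 0.29, and RIOK2, a kinase of small subunit maturation, at -0.07. Without egt17 the median of the ribosome-associated proteins was -0.16.

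Ribosome biogenesis factors were more scattered, with 25 of 32 positive and a median of 0.27, which was -0.0033 without egt17. Fib, the methylase of ribosomal RNA known as fibrillarin, had 379 FPKM in egt17 and 301 FPKM in egt8, against 263 FPKM in wild type 1 and 156 FPKM in wild type 2. Its difference was 0.73 ± 0.40 (SE), with both null libraries above both wild types. Gar1, of the complex that makes pseudouridine in ribosomal RNA, had 130 FPKM in egt17 and 138 FPKM in egt8, against 81.3 FPKM in wild type 1 and 79.3 FPKM in wild type 2, a difference of 0.73 ± 0.30 (SE) without overlap. The limma adjusted p with the pair term was 0.238 for Fib and 0.193 for Gar1. TAF1B, of the factor that starts ribosomal RNA transcription, and Non2 were lowest, at -0.32 ± 0.36 and -0.25 ± 0.47 (SE).

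The 73 mitochondrial ribosomal protein genes had a median genotype difference of 0.17, with 62 positive, beside 0.35 for the cytoplasmic ones. Their median pair difference was 1.07, beside 0.72, and without wild type 2 their median genotype difference was -0.44. Their range between genotypes ran from -0.32 for mRpS17 to 0.66 for mRpL33. The difference between the 2 families was not tested. The 15 regulators of growth and of ribosomal protein stress had a median of 0.00, with 7 positive and 8 negative. The lowest was raptor at -0.47, followed by S6kII. With each library left out in turn, raptor stayed between -0.94 and -0.0008 and S6kII between -0.72 and -0.15. Xrp1, which mediates the response to ribosomal protein loss in Minute flies, had 14.8 FPKM in egt17 and 31.0 FPKM in egt8, against 7.82 FPKM in wild type 1 and 16.2 FPKM in wild type 2. Its difference was 0.87 ± 0.59 (SE, limma adjusted p = 0.247 with the pair term), higher in the null library of each pair, with genotypes overlapping. Myc, a growth regulator that raises ribosome production, had 11.9 FPKM in egt17 and 38.1 FPKM in egt8, against 6.44 FPKM in wild type 1 and 55.5 FPKM in wild type 2, and went opposite ways in the pairs.

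**Figure D5:**
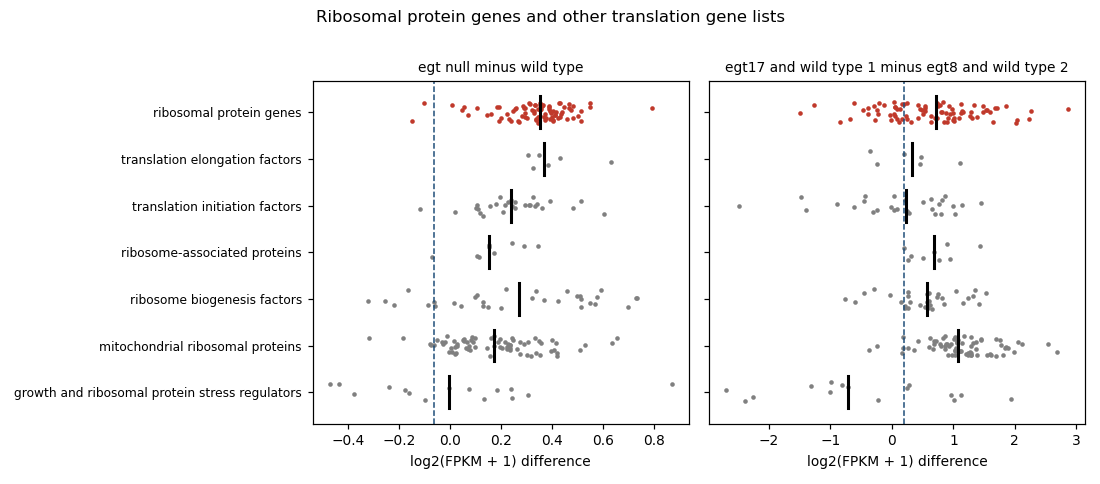
Genotype difference (left) and pair difference (right) on the log2(FPKM + 1) scale for each tested gene of the ribosomal protein family and 6 other lists, with the median of each list as a bar and the median of all genes tested as a dashed line. The ribosomal protein genes cluster around 0.35 on the left and spread from -1.49 to 2.86 on the right.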

How the data were processed

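The FPKM table of total RNA was deposited by the authors with 1 added to each of 35502 rows, as its minimum of exactly 1 in all libraries shows, and this 1 was taken off first. The submitters' processing notes name Bowtie2 2.2.4 and dm6. How reads were counted, and what was done with strand and with reads of several matches, is not stated in the sources used here. Of 35327 transcript rows 32988 matched a gene of the RefSeq Release 6 annotation and were summed by gene, 2339 matched none and were kept as features of their own, and 175 rows were transposons. Reads shared by transcripts of a gene may enter its sum repeatedly.

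Features with at least 1 FPKM in at least 2 libraries (8755) were tested on log2(FPKM + 1) with limma 3.58.1 in R 4.3.3, two-sided, with a mean-variance trend and Benjamini-Hochberg adjustment at 0.05, with genotype alone (2 residual degrees of freedom) and with the library pair as a term (1). The genotype difference is the same in both fits. The limma script was tested on simulated data. List medians, the pair difference and values within pairs carry no test. The 4 small RNA libraries were not used here.

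The members and gene lists were chosen with earlier results of these data known, and the pairs were recognised from these libraries, not from the labels. Genes were named by rule: the 6 of highest level, the 5 highest and 5 lowest genotype differences, the 4 largest and 4 smallest pair differences, paralogs, genes near the threshold, and of each other list the 2 highest positive and, where there were any, the 2 lowest negative. Values of 1 member are not reported here, though it is in all counts and medians. Others were named for their role or after their values were seen. Alternatives were another pseudocount (0.1), other filters, scalings, no variance trend, the highest transcript of each gene, and leaving out each library. Scaling outside eggshell and yolk genes was added after seeing the data. Python 3.11.15 with pandas 2.3.3 handled the tables and matplotlib 3.10.9 the plots.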

Additional observations from a re-analysis of the deposited data

Results flagged for a closer look

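In 12 ribosomal protein genes the alleles went opposite ways against the wild type of their own pair, all of them lower in egt17 and higher in egt8. With 1 library for each allele these differences between the alleles were not tested. Values are given for 11 of them. The gap (egt8 difference minus egt17 difference, log2 scale) was widest for RpS2 at 1.14, where egt17 stood at -0.51 and egt8 at 0.63, and for RpLP2 at 1.09, where egt17 stood at -0.70 and egt8 at 0.40. RpS5b had a gap of 0.92 (-0.17 in egt17 and 0.76 in egt8) and its copy RpS5a one of 0.91 (-0.08 and 0.83). RpLP0 had a gap of 0.92 (-0.35 and 0.57), RpL24 of 0.92 (-0.45 and 0.47) and RpL34b of 0.88 (-0.39 and 0.49). Smaller gaps were 0.82 for RpL18 (-0.19 and 0.63), 0.74 for RpL28 (-0.04 and 0.70), 0.72 for RpL13 (-0.09 and 0.63) and 0.58 for RpL8 (-0.01 and 0.57).

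The list of growth and ribosomal protein stress regulators also differed in sign: its median was 0.45 for egt17 and -0.29 for egt8, each minus its paired wild type, which makes a gap of -0.74. This difference was not tested either.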

How the results depend on the processing

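With another pseudocount, filter, scaling or choice of transcript, the median genotype difference of the ribosomal protein genes stayed between 0.28 and 0.40 and positive. With a replicate block (the library pair as a term) limma called 13 genes or transposons in place of 0, and 0 ribosomal protein genes in either fit. The median pair difference was 0.52 when scaled by the median ratio, 0.31 at an equal sum of FPKM and 0.28 at an equal sum outside eggshell and yolk genes. In that order of scalings the median genotype difference was 0.22, 0.14 and 0.10 for mitochondrial ribosomal proteins and 0.29, 0.20 and 0.17 for initiation factors. By the highest transcript it was 0.19 and 0.22 for these lists, and at a pseudocount of 0.1 it was 0.18 for mitochondrial ribosomal proteins. Growth and stress regulators turned positive at a pseudocount of 0.1 (0.0094), by the median ratio (0.036) and by the highest transcript (0.045). RpL24 turned negative at an equal sum of FPKM (-0.032), outside eggshell and yolk genes (-0.069) and by the highest transcript (-0.020). RpL34b (-0.029), RpS2 (-0.021) and RpL24-like (-0.0072) did so outside eggshell and yolk genes. By the highest transcript the log2 ratio between genotypes was 0.013 for RpL7-like over RpL7, which turned, and -0.10 for RpS5b over RpS5a. The cause of these moves was not tested.

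Leaving out each library in turn mixes the pair difference into the genotype difference, since 1 pair is then incomplete and a lone library is assumed to vary like the others. The lowest and highest values were -0.038 and 0.75 for the family median, -0.037 and 0.71 for large and -0.040 and 0.78 for small subunit genes. The share of summed FPKM differed by 0.693 to 9.13 percentage points, and limma called 7 to 12 genes in all. For the other lists they were -0.38 and 0.24 for growth and ribosomal protein stress regulators, -0.44 and 0.73 for mitochondrial ribosomal proteins, -0.0033 and 0.66 for ribosome biogenesis factors, -0.16 and 0.46 for ribosome-associated proteins, 0.15 and 0.57 for translation elongation factors, 0.064 and 0.42 for translation initiation factors. For log2 ratios of copies between genotypes they were -1.20 and 1.32 for RpL24-like over RpL24, -0.54 and 1.18 for RpL34a over RpL34b, -0.19 and 0.16 for RpL7-like over RpL7, -0.45 and 1.12 for RpLP0-like over RpLP0, -0.82 and -0.17 for RpS14b over RpS14a, 0.046 and 0.53 for RpS15Ab over RpS15Aa, -0.023 and 0.89 for RpS19b over RpS19a, -0.28 and 0.12 for RpS5b over RpS5a. Of 256 such values for 64 named genes, 78 turned sign, in 44 genes. The lowest and highest for these genes were -0.076 and 0.69 for Max, -0.16 and 0.74 for Non1, -0.68 and 0.17 for Non2, -0.48 and 0.35 for RIOK2, -0.56 and 1.13 for RpL21, -0.33 and 0.34 for RpL24, -0.40 and 1.21 for RpL27, -0.44 and 1.48 for RpL29, -0.36 and 0.46 for RpL34b, -1.32 and 1.71 for RpL36, -0.97 and 1.37 for RpL41, -0.74 and 0.44 for RpLP2, -1.12 and 0.92 for RpS14b, -0.36 and 0.47 for RpS2, -0.33 and 0.66 for RpS3A, -0.19 and 1.06 for eEF1beta, -0.54 and 0.30 for eIF4B, -0.35 and 1.56 for eIF4H1, -1.05 and 2.37 for mRpL33, -0.26 and 1.53 for mRpL55, -1.26 and 0.90 for mRpS16, -1.25 and 0.61 for mRpS17, -0.36 and 1.40 for pAbp, -0.79 and 1.31 for RpS30, -0.77 and 1.55 for RpL32, -0.42 and 1.14 for RpL22, -0.61 and 1.06 for RpL18, -0.27 and 0.74 for RpS10b, -0.35 and 0.94 for RpS5b, -0.070 and 0.82 for RpS5a, -0.48 and 1.27 for RpS14a, -0.081 and 0.95 for RpS15Ab, -0.57 and 0.86 for RpS15Aa, -0.082 and 0.82 for RpL34a, -0.18 and 0.88 for RpL7-like, -0.053 and 0.79 for RpL7, -0.86 and 0.99 for RpL24-like, -0.22 and 1.09 for RpLP0-like, -0.23 and 0.44 for RpLP0, -0.31 and 1.002 for RpLP1, -0.073 and 0.94 for RpL40, -0.13 and 0.71 for RpS27A, -0.0078 and 0.87 for RpL35A, -1.33 and 1.60 for Myc. Depth, of 6.15 to 16.6 M reads by estimate, limits the lowest genes, RpS10a and RpS19b, most. With 2 libraries a genotype, the SE of single ribosomal protein genes without the pair term ran from 0.33 for RpL39 to 1.38 for RpL36.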
